A study of Homo sapiens with 3 samples.

Results

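An siRNA directed against the 3' part of the aspartate tRNA (3'-Asp KD) in LNCaP cells was examined on 1 of the 3 arrays of the series. The array was taken by its treatment label, and each gene is described by the log2 ratio of the first over the second signal column of that array. LNCaP is an established line of human prostate cancer that responds to androgen. The line was grown in IMEM with L-glutamine and fetal bovine serum and transfected with 10 nM of the 3'-Asp siRNA, or with an siRNA against Renilla luciferase (R-Luc) as the control, for 72 h. The other arrays held knockdowns of 5' tRNA fragments, one from the aspartate tRNA (5'-Asp KD) and one from the lysine tRNA (5'-Lys KD), each at 20 nM for 72 h and each against the R-Luc control. Every group was thus LNCaP cells carrying a transfected siRNA, and no untransfected sample was analysed here. Total RNA was taken with TRIzol, the knockdown RNA was labelled with Cy3 and the control RNA with Cy5, and both were hybridised to one two-colour array. There was 1 array per knockdown, so no difference below has a replicate check, and the labels do not say whether cultures were pooled.

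The direction of the ratio has 2 readings. By the dye labels the knockdown is Cy3. The log2 ratios of 10 spike-in probes correlated between the arrays at a Pearson r of at least 0.999 across probes. If the spike-ins were added alike for each dye, which no label states, the first column holds the same dye on every array. On the 5'-Lys array the first column is named for the knockdown. Read this way, the first column of the 3'-Asp array is the knockdown. The column names of the 3'-Asp array itself say the opposite: they give the first column to the control and the second to the 3'-Asp siRNA. All values are therefore given as first over second column. On the 3'-Asp and 5'-Asp arrays, "brighter in the second column" means lower in the knockdown by the dye labels and higher in the knockdown by the column names. On the 5'-Lys array it means lower in the knockdown by both readings, so under the column names every 5'-Lys value set beside a 3'-Asp value below has the opposite sense with respect to the knockdown.

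SHOT-RNAs are sex hormone-dependent tRNA fragments, produced in hormone-dependent breast and prostate cancer cells when angiogenin, a ribonuclease, cuts mature tRNAs in the anticodon loop. The cut leaves a 5' fragment and a 3' fragment, and the fragments have been tied to the proliferation of such cells. The androgen receptor, a nuclear receptor that binds DNA as a dimer, drives a well-known set of target genes in LNCaP cells, with the kallikreins among them. The RefSeq table of GRCh38.p14 lists 14 genes of the aspartate tRNA with the anticodon GTC, on 4 chromosomes. The array probes named here are for longer transcripts, so the level of the fragment itself was not measured.

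Of 20287 named genes, 10144 were measured, meaning that their mean log2 signal over both columns was at or above the median of all named genes (a signal of 129). Both columns had close medians over all probes, 79.7 and 80.9. The negative control probe gave 3.88 in the first column and 2.20 in the second, and the 2029 dimmest genes had a median log2 ratio of 0.74, which is why dim genes were left out. Among measured genes the log2 ratios had an SD of 0.30, and the 1st and 99th percentiles lay at -0.83 and 0.64. Their median was -0.06, so that 59.9% of measured genes lay below 0. The cell identity was checked on marker genes. All 10 luminal prostate markers on the array were measured, and their summed signals were 95920 in the first column and 104802 in the second. Of the basal markers KRT5, KRT14 and TP63 lay between 1.86 and 5.86 in both columns, near the negative control probe, and KRT15 and ITGA6 were measured. No endothelial or leukocyte marker was measured, 1 of 6 stromal markers (COL1A1) was, and of 4 neuroendocrine markers only ENO2 was, while CHGA and INSM1 were near the negative control.

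At least 2-fold brighter in the first column were 13 measured genes (0.128% of those measured), and 34 (0.335%) were at least 2-fold brighter in the second column. With the 1.5-fold limit used for gene lists below, 154 (1.52%) and 385 (3.8%) genes were on these sides. The other arrays had 26 (0.256%) and 73 (0.72%) genes at 2-fold on the 5'-Asp array and 50 (0.493%) and 173 (1.71%) on the 5'-Lys array, all against the same kind of control, at a higher siRNA dose. With the 1.5-fold limit the 5'-Asp array had 2.31% and 6.01% of its own measured genes on these sides and the 5'-Lys array 3.27% and 9.21%. The split between the sides of the 3'-Asp array depended on the centring: 13 against 34 became 25 against 25 when the ratios were centred on measured genes and 25 against 28 after loess. Just inside the 2-fold limit stood DICER1 at a log2 ratio of 1.001 and PLEKHA6 at -1.01, and just outside stood BTG1 at -0.99 and RFLNB at -0.99. Of the 47 genes past 2-fold, 40 had a single probe.

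**Figure D1:**
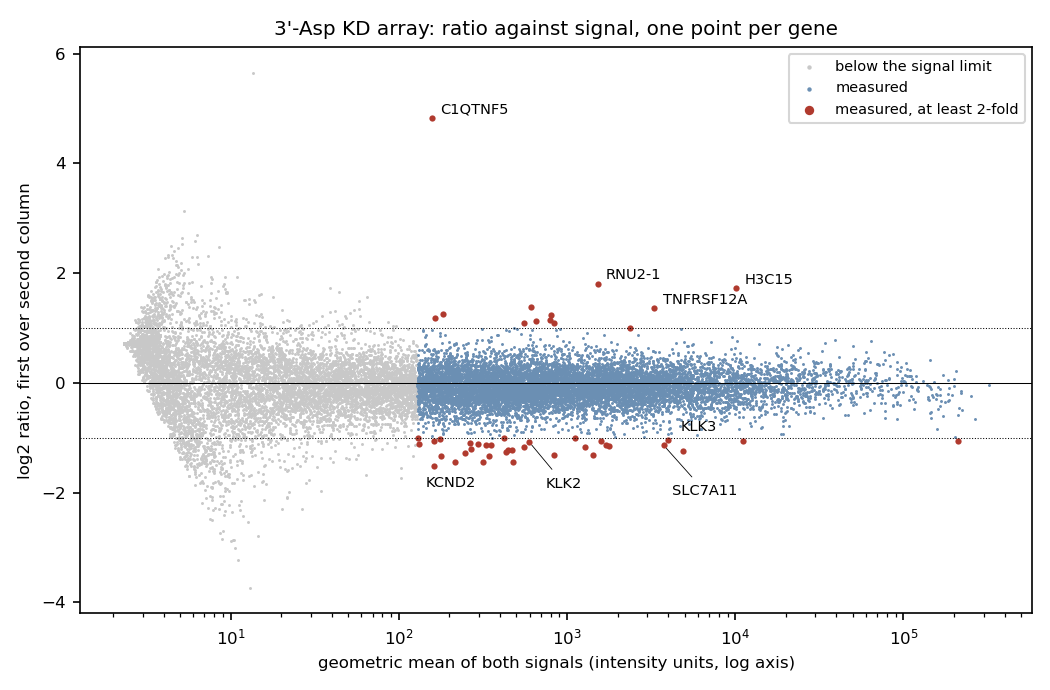
Each point is 1 gene of the 3'-Asp array, with the geometric mean of both signals on the x axis (intensity units, log axis) and the log2 ratio of the first over the second column on the y axis. Grey points lie below the signal limit, blue points are measured genes and red points are the 47 measured genes at least 2-fold apart (dotted lines), 13 above and 34 below.

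KLK3 and KLK2, the genes of prostate-specific antigen and of the related kallikrein 2 and the best known androgen targets of the prostate, were at least 2-fold brighter in the second column. KLK3 had a signal of 2868 in the first column and 5613 in the second, a log2 ratio of -1.04. KLK2 had 420.0 and 844, a log2 ratio of -1.08. Both genes had 2 probes, and every probe lay on the same side. The KLK3 probes differed widely in brightness, with signals of 375 and 740.4 for the dim one and 21923 and 42549 for the bright one, yet their log2 ratios were -1.05 and -1.03. The KLK2 probes gave -1.25 and -0.90. KLK4, another prostate kallikrein, had 1121 and 1506, a log2 ratio of -0.50, and the pseudogene KLKP1 had 0.01. Of these 4 measured kallikreins 2 were thus past 1.5-fold on the second side (background 3.8%), and the median was -0.77. On the 5'-Asp array KLK3 had -0.79 and KLK2 -0.81, and on the 5'-Lys array -0.77 and -0.47. The level of KLK3 in the second column was itself unsteady between the arrays: relative to each column's median, its log2 signal was 5.52 on the 3'-Asp array, 6.79 on the 5'-Asp array and 6.13 on the 5'-Lys array. That spread (SD 0.63 over 3 columns) compares with a median of 0.15 over measured genes. Both KLK2 and KLK3 dropped under 2-fold in at least one of 9 other ways of processing the signals, without a change of side.

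The upstream sequences of these kallikreins are shown because KLK2 and KLK3 had close ratios and have similar promoters. The 250 bases before each start are given from RefSeq (GRCh38.p14, plus strand), chr19:50854665-50854914 for KLK3 and chr19:50873189-50873438 for KLK2. Capitals mark the only stretch that matches NGAACAGCAAGTGCT, an imperfect repeat of the androgen receptor's AGAACA half-site with letters taken from these very promoters, whose first base is at -170 from the KLK3 start and at -176 from the KLK2 start.
KLK3: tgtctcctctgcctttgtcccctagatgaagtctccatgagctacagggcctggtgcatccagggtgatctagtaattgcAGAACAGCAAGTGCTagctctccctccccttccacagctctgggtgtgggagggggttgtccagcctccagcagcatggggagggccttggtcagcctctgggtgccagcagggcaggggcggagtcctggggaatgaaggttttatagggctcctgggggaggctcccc
KLK2: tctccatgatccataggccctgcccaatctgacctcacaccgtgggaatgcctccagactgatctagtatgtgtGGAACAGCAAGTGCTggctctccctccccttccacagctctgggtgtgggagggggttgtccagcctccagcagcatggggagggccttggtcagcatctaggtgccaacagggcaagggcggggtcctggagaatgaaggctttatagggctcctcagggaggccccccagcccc
The windows were identical at 205 of 238 aligned bases (86.1%). Of 35116 RefSeq promoters of this length, 2 held the 15-letter element on either strand, namely these. The AGAACA half-site alone, searched on both strands, was in 12.4% of all promoters, in 10.3% of those of measured genes and in 2 of 28 androgen-induced genes with a promoter entry (KLK3 and PMEPA1).

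Among 34 measured androgen-induced genes, 8 were at least 1.5-fold brighter in the second column and none in the first, with a median log2 ratio of -0.36. The background on the second side was 3.8%. On the other arrays 11 (5'-Asp) and 12 (5'-Lys) of them were past 1.5-fold on the second side (background 6.01% and 9.21%). The medians of the list there were -0.35 and -0.48, beside -0.08 and -0.07 over all genes measured on those arrays. On the 3'-Asp array 28 of the 34 lay below 0, against 59.9% of all measured genes. Beside the kallikreins, MAF, a transcription factor, had 339 and 586 (log2 ratio -0.86). KCNN2, a calcium-activated potassium channel, had 4776 and 8109.7 (-0.83), and PTGER4, a prostaglandin receptor, had 323 and 524 (-0.77). ACSL3, which activates long fatty acids, had 2115 and 3168 (-0.65), and SLC45A3, also called prostein, had 11797 and 16979.8 (-0.59). Of these 34, 6 lay above 0, among them TMPRSS2, a membrane serine protease, at 4941 and 4299 (0.13), and HOMER2 at 1864 and 1473 (0.27). FKBP5, a co-chaperone of steroid receptors, had 366 and 428, a log2 ratio of -0.30.

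Of 5 measured androgen-repressed genes, 2 were at least 1.5-fold brighter in the first column (background 1.52%). DDC, which makes dopamine and serotonin from their precursors, had 833 and 433 (log2 ratio 0.87), but its bright probe (20348 and 13744) was within 1.5-fold at 0.50, and the call rests on a probe at 34.1 and 13.6 (1.25). UGT2B15, which glucuronidates androgens and has a single probe, had 29995 and 18807 (0.60). CAMK2N1, an inhibitor of calcium/calmodulin kinase, had 3745 and 2782 (0.36), and PRUNE2 lay on the other side at -0.29. The median was 0.36 (-0.12 with no signal filter), as against -0.05 on the 5'-Lys array and 0.36 on the 5'-Asp array. The 13 measured luminal transcription factors held no gene past 1.5-fold and ran from -0.53 (ETV1) to 0.37 (ELF3). Between them lay HOXB13 (27619 and 32397, log2 ratio -0.30) and FOXA1 (0.02). Of 13 enzymes of androgen synthesis and glucuronidation, RDH10 (1012 and 369, log2 ratio 1.38) and UGT2B15 were past 1.5-fold in the first column and SRD5A3 (478 and 800, -0.81) in the second (background 1.52% and 3.8%). RDH10 oxidises retinol to retinal and had 0.91 on the 5'-Asp and 0.12 on the 5'-Lys array.

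**Figure D2:**
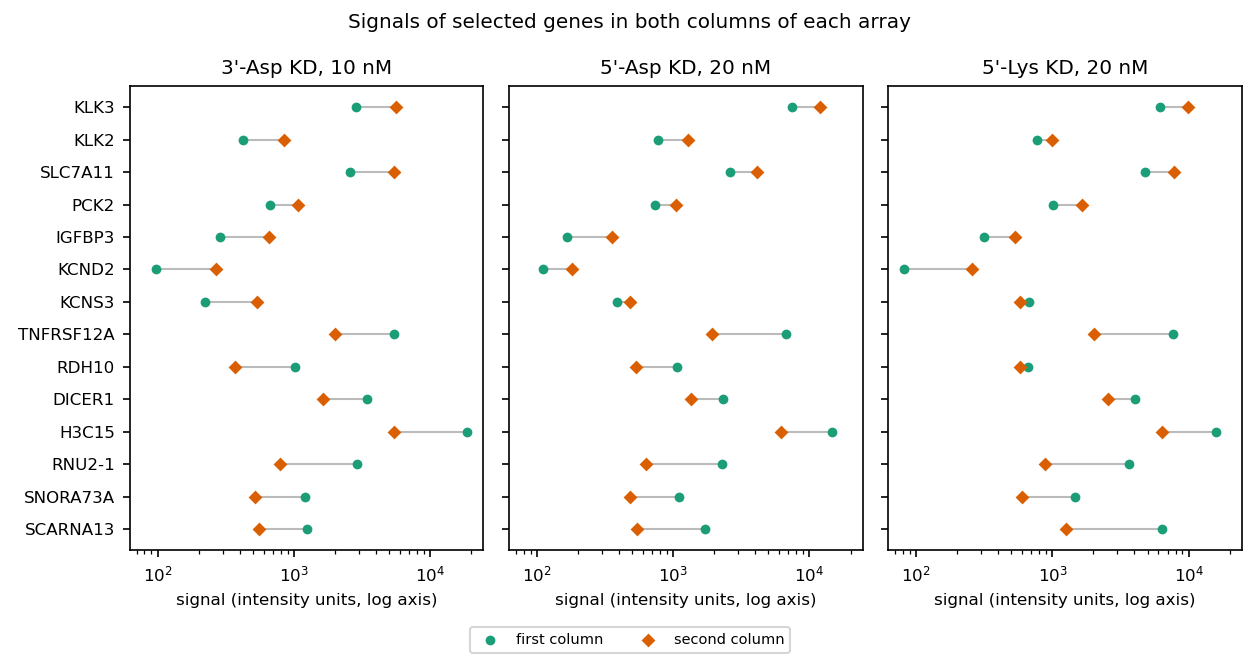
Signals of 14 genes are drawn for each array on a log axis in intensity units, with circles for the first column and diamonds for the second. On the 3'-Asp array the upper 7 genes, from KLK3 to KCNS3, are brighter in the second column and the lower 7, from TNFRSF12A to SCARNA13, are brighter in the first.

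Genes that ATF4, the transcription factor of the amino acid response, is known to drive lay mostly on the second side. Of 33 measured, 5 were at least 1.5-fold brighter in the second column (background 3.8%) and none in the first. Below 0 lay 31 (background 59.9%), and the median log2 ratio was -0.33. SLC7A11, the cystine importer, had 2591 and 5433, a log2 ratio of -1.14. MTHFD2, a mitochondrial enzyme of folate metabolism, had 3681 and 6063 (-0.79), and GPT2, mitochondrial alanine aminotransferase, had 2023 and 3333 (-0.79). PCK2, mitochondrial phosphoenolpyruvate carboxykinase, had 667 and 1077 (-0.76), with its 2 probes at -0.90 and -0.62. ASNS, asparagine synthetase, had 27098 and 40328 (-0.64). SLC7A11, MTHFD2, PCK2 and ASNS also lay below 0 on the other arrays, at -0.76, -0.93, -0.59 and -0.62 on the 5'-Asp array. GPT2 did not: it had 0.15 there and -0.08 on the 5'-Lys array. ATF4 mRNA itself had 70698 and 73739, a log2 ratio of -0.13, and the ATF4 partner CEBPB had 0.21. The letters TGATGNAA, a composite ATF4 and CEBP motif searched on both strands, were in 7 of 26 promoters of the list against 3.14% of all promoters and 2.01% of those of measured genes. Of the 5 genes past 1.5-fold only ASNS was among these 7. The list was made of known ATF4 targets, so its motif share is no result of this array.

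SLC7A11 also belongs to 2 further lists, for which the background on the second side was 3.8%. Of 26 measured NRF2 and antioxidant genes, it and FTH1, the ferritin heavy chain (74912 and 112912, log2 ratio -0.66), were the only ones past 1.5-fold, both on the second side, with a median of -0.06. Of 20 amino acid transporters, it and SLC1A1, a glutamate and cysteine carrier (539 and 920.2, -0.84), were past 1.5-fold, again on the second side, with a median of -0.13.

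Insulin-like growth factor genes and potassium channels held some of the lowest ratios. IGFBP3, which binds insulin-like growth factors in the extracellular fluid, had 289 and 659, a log2 ratio of -1.26, and -1.19 and -0.86 on the 5'-Asp and 5'-Lys arrays. IGF1R, their receptor, had 666 and 1182 (-0.90, against -0.38 and -0.36). Of the 6 measured genes 2 were past 1.5-fold on the second side (background 3.8%), with a median of -0.51 that was -0.0008 with no signal filter, and IGFBP2 (0.02) and IGF2R (0.12) lay near 0. Among 13 measured potassium channel genes 4 were past 1.5-fold, all on the second side (background 3.8%). Their median was -0.25, and with no signal filter, which adds dim channel genes, the list's median turned to 0.29. KCND2, a voltage-gated channel subunit, had signals of 97.8 and 268 and a log2 ratio of -1.52. It counted as measured by the mean of both columns, since its first signal lay under the limit of 129, and it had the lowest ratio of the genes that passed this filter. KCNS3, a modifying subunit of voltage-gated channels, had 222 and 532 (-1.33), against -0.43 on the 5'-Asp array and 0.14 on the 5'-Lys array. KCNMA1, the pore of the large-conductance channel, had -0.68 over 5 probes.

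Some of the 15 lowest ratios belonged to genes of other kinds. NDST1, which sulphates heparan chains, had 3269 and 7380.4, a log2 ratio of -1.24. ATG4A, a protease that processes autophagy proteins, had 380 and 819 (-1.18), and SPOPL, a substrate adaptor of a ubiquitin ligase, had 197 and 509 (-1.44). GNB4, a G protein subunit, had 930.1 and 2193 (-1.31), and GIPR, the receptor of an incretin hormone, had 163 and 378 (-1.28). Among neuronal genes SYT4 and SEMA3C, a synaptotagmin and a secreted axon guidance factor, had -1.17 and -1.22, and both lay below 0 on the 5'-Lys array as well, at -2.10 and -2.54. The 11 measured neuronal and neuroendocrine genes were split, with 2 past 1.5-fold on each side (background 1.52% on the first, 3.8% on the second). SYT4 and SEMA3C lay on the second, and DDC (by its dim probe) and TUBB3, a neuronal tubulin (2584 and 1503, log2 ratio 0.71), on the first.

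Cell cycle genes lay slightly on the second side. Of 44 measured genes of G1/S and replication, 3 were at least 1.5-fold brighter in the second column (background 3.8%). Below 0 lay 39 (background 59.9%), and the median log2 ratio was -0.28. The 3 past 1.5-fold were E2F2, a cell cycle transcription factor (2186 and 3448, -0.73), CDC45 (5401 and 8282, -0.69) and MCM4 (2031 and 3085, -0.67), both of the replicative helicase. On the 5'-Asp and 5'-Lys arrays 26 genes each were past 1.5-fold on the second side (background 6.01% and 9.21%), with medians of -0.63 and -0.61. Of 42 G2/M genes 1 was past 1.5-fold, namely ANLN, which organises the cleavage furrow (317 and 708, -1.23), and the median was -0.26, against -0.62 and -0.67 with 22 and 31 genes on the other arrays. PCNA, the sliding clamp of DNA polymerase, had -0.38, -1.15 and -0.69 on the 3'-Asp, 5'-Asp and 5'-Lys arrays. MKI67, a proliferation marker, had -0.25, -0.45 and -0.90. The siRNA dose was 10 nM for 3'-Asp and 20 nM for the others, so these differences carry a difference in dose.

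Replication-dependent histone genes, whose mRNAs end in a stem-loop in place of a poly(A) tail, lay on the first side. Of 58 measured, 6 were at least 1.5-fold brighter in the first column (background 1.52%) and none in the second. Above 0 lay 55 and below it 3, whereas 59.9% of all measured genes lay below 0. The median log2 ratio was 0.30. H3C15, an H3 gene, had 18741 and 5425, a log2 ratio of 1.72, and 1.13 and 1.22 on the 5'-Asp and 5'-Lys arrays. H2BC7 had 625 and 305 (0.96), and H3C13 30804 and 18923 (0.63). H4C3 had a mean of 0.71 from probes that disagreed, the bright one (167138 and 149529) at 0.09 and the dim one (1952 and 737) at 1.33. H3C1 had 19015 and 18453, a log2 ratio of -0.03, and so lay apart from H3C15 on the same array. Histone genes of a family are near-identical in their coding sequence, so signals of single members are uncertain. The medians of the list on the 5'-Asp and 5'-Lys arrays were -0.03 and 0.24, with 1 and 12 members past 1.5-fold on the first side (background 2.31% and 3.27%). SLBP, which binds the histone stem-loop, had 7054 and 9594, a log2 ratio of -0.51.

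The upstream sequence of H3C15, the histone gene with the highest ratio, shows the CCAAT letters that recur in this family. The 250 bases before its start are given from RefSeq (GRCh38.p14, plus strand, chr1:149852358-149852607), with 2 CCAAT matches in capitals, whose first bases are at -95 and -54.
H3C15: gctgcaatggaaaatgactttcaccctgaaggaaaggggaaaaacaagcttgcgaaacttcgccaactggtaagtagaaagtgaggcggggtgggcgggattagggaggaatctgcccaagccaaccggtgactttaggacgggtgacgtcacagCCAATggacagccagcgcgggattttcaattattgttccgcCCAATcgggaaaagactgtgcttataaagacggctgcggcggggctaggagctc
CCAAT, searched on both strands, was in 46 of 53 histone promoters with an entry (86.8%). It was in 32.0% of all promoters and 42.9% of those of measured genes (3563 of 8301). H3C1, which lay near 0, and H2AC11, the lowest of the list, were among these 46. The list was made by gene family, so its motif share is no result of this array.

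Small nuclear, nucleolar and Cajal body RNAs, which guide or carry out RNA processing and lack a poly(A) tail, had the highest median of the 41 lists. All 26 measured members lay above 0, 19 of them at least 1.5-fold brighter in the first column, with a median log2 ratio of 0.79. The background on that side was 1.52%, and 59.9% of all measured genes lay below 0. RNU2-1, the U2 RNA of the spliceosome, had 2912 and 793, a log2 ratio of 1.81. SNORA28 had 1265 and 514 (1.23), SNORA73A 1199 and 519 (1.14) and SCARNA13 1246 and 557 (1.09) (SNORA28 and SNORA73A are H/ACA nucleolar RNAs, SCARNA13 is a Cajal body RNA). SNORA73B, with 2 probes at 0.86 and 0.95, had a mean of 0.90. SNORD17, at 0.08, was the lowest. On the 5'-Asp and 5'-Lys arrays RNU2-1 had 1.76 and 1.97. Of the 26, 14 (5'-Asp) and 17 (5'-Lys) were past 1.5-fold on the first side (background 2.31% and 3.27%), with medians of 0.61 and 0.89. By RNA class, 28 small structured RNAs had a median of 0.76, against -0.06 for 9610 protein-coding genes and -0.13 for 285 long noncoding RNAs. The 3 ribosomal RNA entries had a median of 0.64, and the 12 mitochondrially encoded genes one of 0.25. By the dye labels all arrays have one dye orientation. A dye effect of a probe or gene and an effect of the siRNA then cannot be told apart in any ratio given here. By the column names, and with the first column the same dye throughout, the 5'-Lys array has the opposite orientation to the Asp arrays, with another siRNA. No siRNA was hybridised in both orientations, and a dye effect was not tested.

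**Figure D3:**
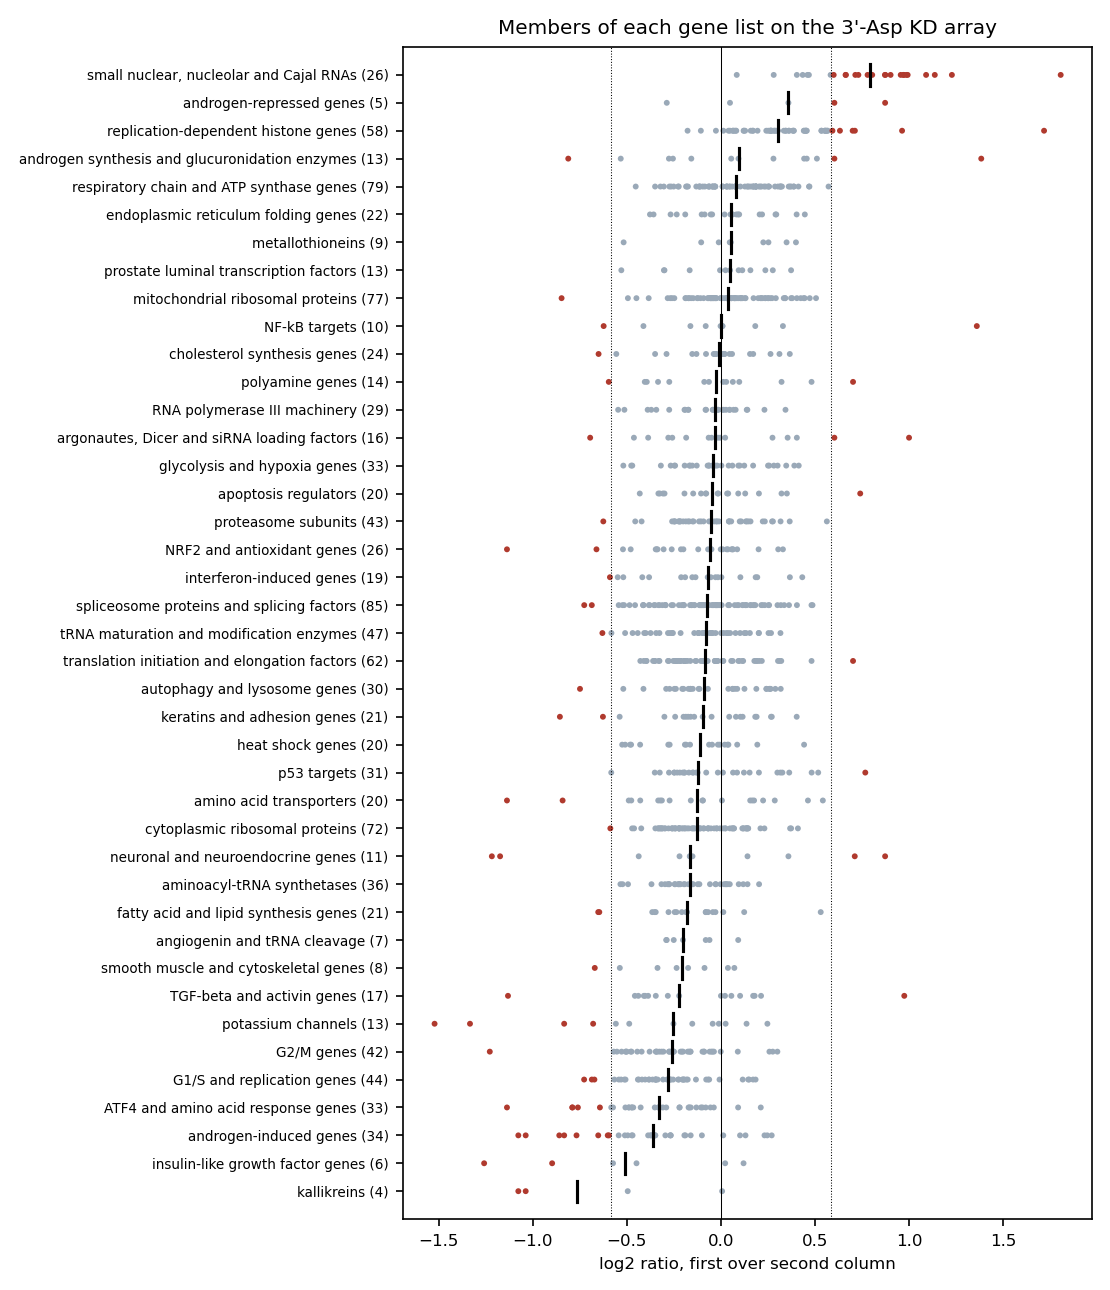
The log2 ratios (first over second column) of the measured members of 41 gene lists are drawn for the 3'-Asp array, 1 row per list with the number measured in brackets and a black bar at the median. Red points are at least 1.5-fold apart (dotted lines); small nuclear, nucleolar and Cajal RNAs stand at the top with a median of 0.79 and kallikreins at the bottom with -0.77.

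Genes that make, cut or use tRNA held few genes past 1.5-fold (background 1.52% on the first and 3.8% on the second side). Angiogenin (ANG) had 710.4 and 706, a log2 ratio of -0.06, and its inhibitor RNH1 had 2511 and 2530.1 (-0.08). The 7 measured genes of angiogenin and tRNA cleavage lay between -0.29 (PLXNB2, an angiogenin receptor) and 0.09 (YBX1, which binds tRNA fragments), with a median of -0.20 and none past 1.5-fold. None of 36 aminoacyl-tRNA synthetases was past 1.5-fold. Their median was -0.17, with QARS1 at -0.53 as the lowest and WARS2 at 0.20 as the highest. Of 47 tRNA maturation and modification genes 1 was, TSEN15, a subunit of the tRNA splicing endonuclease (113 and 167, -0.63, from probes at -0.77 and -0.49), and the median was -0.08. The first signal of TSEN15 lay under the limit of 129, so it counted as measured only through its second. ELAC2, which trims the tRNA 3' end, had 2306 and 2847 (-0.37). The 29 genes of the RNA polymerase III machinery, which transcribes tRNA genes, had a median of -0.03 and none past 1.5-fold.

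DICER1, which cuts microRNA precursors, was 2-fold brighter in the first column, with 3436 and 1636 and a log2 ratio of 1.001, against 0.68 and 0.56 on the 5'-Asp and 5'-Lys arrays. TNRC6B, a partner of the argonautes, had 1829 and 1147 (0.60), and its relative TNRC6C lay on the other side with 178 and 275 (-0.70), its 2 probes giving an SD of 0.05. AGO2, the argonaute that cleaves siRNA targets, had 1891 and 1489 (0.27). Of 16 measured argonaute, Dicer and siRNA loading genes, 3 (DICER1, TNRC6B and TNRC6C) were past 1.5-fold beside a median of -0.03. The background was 1.52% on the first and 3.8% on the second side.

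TNFRSF12A, the receptor of the cytokine TWEAK, had the highest ratio of the NF-kB list, 5428 and 2013, a log2 ratio of 1.36, with 1.70 and 1.83 on the 5'-Asp and 5'-Lys arrays. For the lists named here the background was 1.52% on the first and 3.8% on the second side. Of the 10 measured NF-kB targets NFKBIA, the inhibitor of NF-kB, was past 1.5-fold on the second side (7097 and 10418, -0.62), and the median was 0.00. GDF15, a stress-induced cytokine, was the 1 of 31 p53 targets past 1.5-fold (85664 and 47928, 0.77), while CDKN1A had 246 and 188 (0.32). The p53 list had a median of -0.12. BIK, a pro-apoptotic BCL2 relative, was the 1 of 20 apoptosis genes (2407 and 1372, 0.74; list median -0.05). Of 17 TGF-beta and activin genes INHBB, an activin subunit, lay on the first side (1306 and 633, 0.98) and FSTL1, a follistatin relative, on the second (228 and 477, -1.13), with a median of -0.22. EIF5A, which carries the polyamine-derived residue hypusine, was the 1 of 62 translation factors past 1.5-fold (7288 and 4266, 0.70; median -0.09). It and OAZ1, the polyamine-induced antizyme (-0.60), were the 2 of 14 polyamine genes (median -0.03).

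The remaining lists held at most 2 genes past 1.5-fold, all on the second side, where 3.8% of all measured genes lay. Cytoplasmic ribosomal proteins (1 of 72, RPL7A at -0.59) had a median of -0.13, and mitochondrial ones (1 of 77, MRPS25 at -0.85) one of 0.04. None of 79 respiratory chain and ATP synthase genes was past 1.5-fold (median 0.08), nor were any of 22 endoplasmic reticulum folding genes (0.06), 20 heat shock genes (-0.11), 33 glycolysis and hypoxia genes (-0.04) or 9 metallothioneins (0.05). Cholesterol synthesis had 1 of 24 (INSIG1, 2421 and 3621, -0.65; median -0.01), and INSIG1, which holds back the sterol response, had -1.80 and -1.72 on the 5'-Asp and 5'-Lys arrays. Fatty acid and lipid synthesis had 2 of 21 (ACSL3 and LPIN2; median -0.18). Interferon-induced genes had 1 of 19 (IFIT1, 278 and 399, -0.59; median -0.07), and IFIT1 had 2.42 on the 5'-Lys array. One gene each was past the limit among 43 proteasome subunits (PSMD2, -0.63 from probes at -0.90 and -0.35; median -0.05), 30 autophagy and lysosome genes (ATG12, -0.75; median -0.09) and 8 smooth muscle and cytoskeletal genes (CALD1, -0.67; median -0.20). The bright ATG12 probe (2279.8 and 2559.8) was within 1.5-fold at -0.24, and its call rests on a probe at 22.6 and 51.6 (-1.26). Spliceosome proteins had 2 of 85 (SRSF8 at -0.73 and SF3A1 at -0.69; median -0.07), and keratins and adhesion genes 2 of 21 (KRT19 at -0.86 and TJP1 at -0.63; median -0.10). In the last list the bright CLDN4 probe (40565 and 22845) was past 1.5-fold on the first side at 0.76. Its mean with a dim probe (13.5 and 12.4, 0.05) was not.

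Genes with several probes give a check within the array. Of 3115 such measured genes, 112 had a mean at least 1.5-fold from 0, and in 21 of these every probe was that far: 4 in the first column (0.128% of the genes with several probes) and 17 in the second (0.546%). Among the 112, the probes of 4 genes lay on both sides of 0. The median SD between the probes of a gene was 0.16. On the first side GCG, the glucagon precursor, had 451 and 218 with its probes at 1.22 and 0.75, and HIC2, a transcriptional repressor, had 248 and 126 (0.90). The second signal of HIC2 lay under the limit of 129. FAM217B had 809.9 and 445 with its probes at 0.74 and 0.85, whereas its log2 ratio was -0.35 on the 5'-Asp and -0.38 on the 5'-Lys array. On the second side, beside KLK2 and KLK3, TM4SF1, a cell surface protein, had 257 and 469 (-0.94), UBE2E3, a ubiquitin-conjugating enzyme, had 2230.4 and 3915 (-0.88), and PIGS, which attaches proteins to their membrane anchor, had 1905 and 3228 (-0.83). The probes of UBE2E3 differed with an SD of 0.006 and those of PIGS with 0.013. SEC14L1 had discordant probes: its mean of -1.31 came from probes at -2.10 and -0.52. EFCAB11, AS3MT, FUT6 and KRABD4 each averaged brighter signals with a probe under 24 in both columns, so their gene ratios are less certain. For KRABD4 that probe (3.52 and 14.6) had -2.12 and the others -0.60 and -0.62, with a mean of -1.11.

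**Figure D4:**
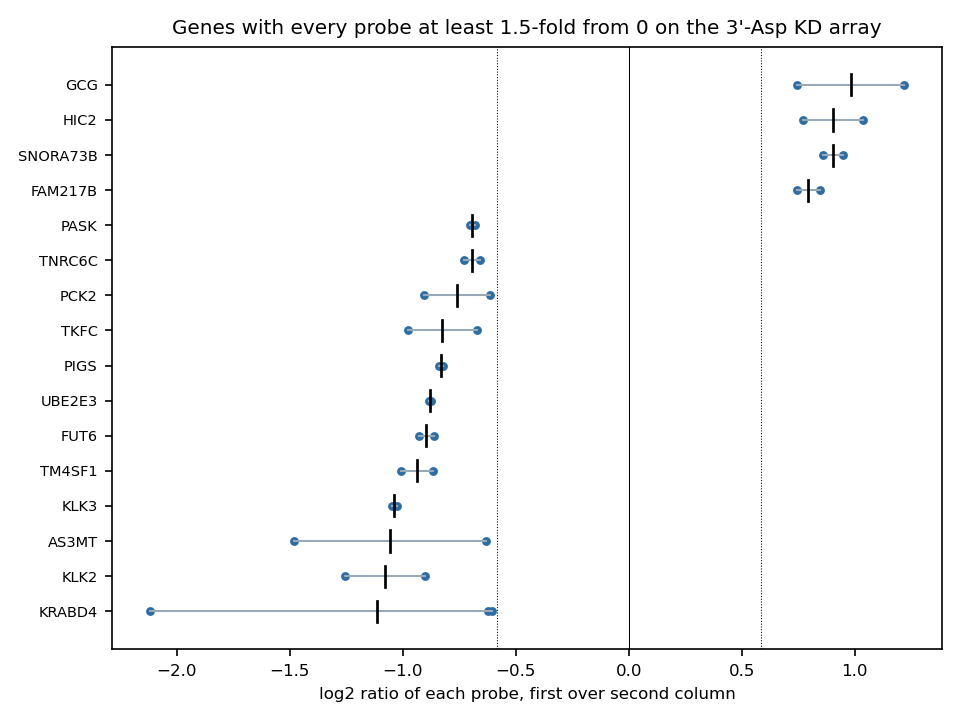
Log2 ratios (first over second column) of the single probes (blue) are drawn for the named genes of the 3'-Asp array with 2 or more probes, all at least 1.5-fold from 0 (dotted lines), and a black bar marks the mean. The probes of KLK3 at -1.05 and -1.03 nearly coincide, while those of KLK2, GCG and AS3MT lie further apart and the 3 of KRABD4 the furthest.

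Several of the lowest ratios of the 3'-Asp array went with a first column that lay apart from all other columns. RFPL2, a RING finger protein, had 135 and 351 on the 3'-Asp array (log2 ratio -1.45), 316 and 311 on the 5'-Asp array (-0.07) and 492 and 446 on the 5'-Lys array (0.05). Relative to each column's median, its log2 signal was 0.15 in the first column of the 3'-Asp array and between 1.52 and 1.82 in the other 5 columns. NDST1 had 4.75 there and 5.61 to 5.92 elsewhere, KCNS3 0.87 against 1.83 to 2.28, and ATG4A 1.65 against 2.75 to 3.30. GCG lay apart upwards, with 1.90 in the first column of the 3'-Asp array and 0.07 to 0.84 elsewhere. These genes were picked out after their values were seen. For TMEM45A, a membrane protein, and SAPCD1 the second column was unsteady as well, with an SD over the arrays of 0.91 and 0.72.

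On 64 of 9989 genes measured on both Asp arrays (0.641%) the log2 ratios of the 3'-Asp and 5'-Asp arrays were at least 2-fold apart. ADRA2A, an adrenergic receptor, had the widest gap, with 186 and 380.1 on the 3'-Asp array (log2 ratio -1.10) and 190 and 111 on the 5'-Asp array (0.68), a difference of -1.78. Its first columns were alike in relative level (0.62 and 0.81) and its second columns were not (1.64 and 0.02). NBEA, a neuronal trafficking protein, had -0.44 and 1.31, and RELB, an NF-kB subunit, -0.41 and 0.96. In the other direction ADD3, a membrane skeleton protein, had 4045 and 2593 on the 3'-Asp array (0.57) and 878 and 1763 on the 5'-Asp array (-1.10). GPRIN2 had 747 and 384 (0.89) and 268 and 416 (-0.73). SDHD, an anchor subunit of succinate dehydrogenase with 3 probes, had -0.18 on the 3'-Asp array and -1.54 on the 5'-Asp array. With 1 array each and different doses, no test of these differences could be made.

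**Figure D5:**
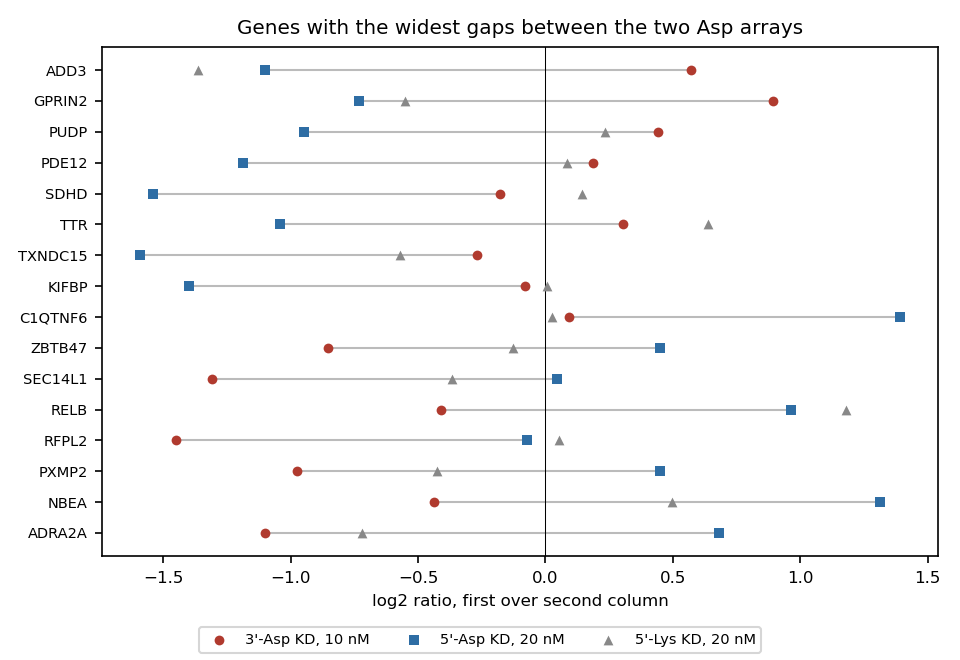
Log2 ratios (first over second column) of the 16 named genes with the widest gaps between the Asp arrays are drawn for 3'-Asp KD at 10 nM (circles), 5'-Asp KD at 20 nM (squares) and 5'-Lys KD at 20 nM (triangles). The lines span the Asp arrays, from ADRA2A at the bottom (-1.10 and 0.68) to ADD3 at the top (0.57 and -1.10).

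The highest ratio of the array belonged to C1QTNF5, a secreted protein related to complement C1q, with 864 in the first column and 28.9 in the second, a log2 ratio of 4.83 from a single probe. The second signal is below the signal limit of 129. The same probe had 4.51 on the 5'-Asp and 4.38 on the 5'-Lys array, and its second column varied by an SD of 0.02 over the arrays. Whether this ratio follows from the siRNAs or from the dye of the first column cannot be told apart.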

How the data were processed

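Per the labels, LNCaP RNA was labelled with Cy3 (knockdown) and Cy5 (R-Luc control), and the hybridisation and data acquisition were done by a company. The authors deposited 2 intensity columns per array for 34183 probes, 56 of them controls. The file headers call them raw, while the medians of both columns nearly agree, and no label names the scanner software or any background or dye correction. The authors also deposited a table of signed fold changes (a score of at least 1 or at most -1), which on the 3'-Asp array equals the ratio of the columns times 1 constant (log2 of -0.01, largest deviation 1.10e-06).

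Intensities were used as given. The log2 ratio of the first over the second column was centred on the median of named probes (0.07 before centring), and a gene's probes were averaged on the log2 scale. A 2015 platform annotation named 28048 probes with 1 gene and none with several, and 6079 other probes had no name. Of the names 25515 were set by transcript accession to RefSeq symbols, 2179 were current, 339 were updated by a synonym and 15 were kept though not current. Some androgen-related genes were not analysed here.

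The array itself is the unit, with n = 1, so no test was run: genes are counted past 2-fold and list members past 1.5-fold. Named genes are the 15 highest and 15 lowest ratios, up to 12 per direction whose probes were all past 1.5-fold, 3 per direction in each list, 8 per direction in the difference from 5'-Asp, and fixed genes such as ANG and KLK3. The members and the 41 gene lists were chosen with earlier results of these data known. Alternatives were the signal filter, the probe summary, loess and normexp (limma 3.58.1, R 4.3.3), an added 50, centring, the deposited folds and the mean second column. The steps were tested on simulated data (Python 3.11.15, numpy 2.4.6, pandas 2.3.3, matplotlib 3.10.9). The number of arrays limits the precision.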

Additional observations from a re-analysis of the deposited data

Results flagged for a closer look

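ADRA2A and GPRIN2 were the genes past 1.5-fold in opposite directions on the Asp arrays with the widest gaps either way. The log2 ratio of ADRA2A on the 3'-Asp array minus that on the 5'-Asp array was -1.78, and for GPRIN2 it was 1.62. Each array is 1 sample and the siRNA doses differ, so the difference was not tested. The second-column level of ADRA2A had an SD of 1.03 over the arrays, and that of GPRIN2 one of 0.36.

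Probes with no gene name were outside the gene comparison. Of 1559 such probes at or above the signal limit on the 3'-Asp array, 6 (0.385%) were at least 2-fold brighter in the first column and 3 (0.192%) in the second. Their log2 ratios ran from -1.64 to 1.61, and what they detect was not analysed here.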

How the results depend on the processing

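None of the named genes past 1.5-fold changed sign under 10 alternatives. The signal filters and the deposited folds cannot change the ratio of a gene. Centring on measured genes shifts all ratios alike, by too little to turn a gene past 1.5-fold. The sign was thus checked only by the other settings. The medians of kallikreins (-0.87 to -0.50), androgen-induced genes (-0.44 to -0.28), ATF4 genes (-0.45 to -0.22), G1/S genes (-0.39 to -0.21), histones (0.21 to 0.37) and small nuclear RNAs (0.58 to 0.86) stayed on their side in every setting. Medians near 0 crossed it under several scalings. Of 2865 values of named genes under 10 alternatives, 186 moved by over 0.16 (the median SD between probes), 73 of them with the mean second column of all arrays as reference. The filters, the deposited folds and the centring on measured genes moved 0 values. With no filter the counts were 464 and 470 at 2-fold, 3689 and 1536 at 1.5-fold and 1204 for the Asp difference. The medians then were -0.51 (kallikreins), -0.12 (androgen-repressed), -0.27 (androgen enzymes), 0.58 (small nuclear RNAs), -0.0008 (insulin-like growth factors), 0.29 (potassium channels), 0.064 (neuronal), 0.079 (TGF-beta), 0.15 (long noncoding class) and 0.50 (small RNA class). Above the 75th percentile of signal they were 4, 11, 57, 161 and 21, with medians of -0.50 (kallikreins), 0.44 (androgen enzymes), 0.23 (metallothioneins, also with the brightest probe), -0.39 (TGF-beta) and -0.30 (genes of other class). Loess gave 25 genes on the first side. Normexp gave 17 and 169 on the second side and 38 for the difference, with -0.015 for angiogenin genes, and an added 50 gave 19, 209 and 38. Centring on measured genes gave 25 and 235 on the first side. With the mean second column p53 targets crossed 0 to 0.032, metallothioneins had -0.16, neuronal genes 0.029 and ribosomal RNA 0.84. Added after the data were seen: without small RNAs and histones 8 genes were 2-fold brighter in the first column, and genes with several probes gave 0, 7, 22, 90 and 12. Of the 13 and 34 genes at 2-fold, 9 and 13 were past it under all of 9 settings, which leave out the 75th percentile filter. That filter kept 4 and 11 of them. The setting with no filter and the deposited folds keep every such gene by construction, so they are no check. The causes were not tested, apart from the fewer genes under a filter. No paired analysis was possible because each group has 1 array. No replicate could be left out.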
